A study of Mus musculus with 50 samples.

Results

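The transcripts of 36 mouse genes of the ATF4 stress pathway and of amino acid supply were followed by RNA-seq in embryonic stem (ES) cells and in epiLC, epiblast-like cells that resemble the early post-implantation embryo and are derived from ES cells in culture. The genes were taken by symbol, from a list chosen with earlier results of these data known. They comprise 10 regulators, 3 genes of endoplasmic reticulum stress and 10 enzymes of amino acid and one-carbon synthesis. The rest are 6 amino acid transporters, 6 cytosolic tRNA synthetases and Vldlr, a lipoprotein receptor. All 36 were present among the 17043 genes of the FPKM table and among the 55421 genes of each of 3 TPM tables.

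The study asks which developmental genes β-catenin and its associated proteins regulate. In the FPKM table, V6.5 ES cells in 2i medium, in which MEK and GSK3 inhibitors hold cells in the naive state, carried hairpins against GFP (shGFP, n = 6), β-catenin (shBcat, n = 2), E2F6 (shE2F6, n = 2) or HP1γ (labelled shHP1r, n = 2). In the first TPM table, cells labelled QKO, a name that the labels do not spell out and that controls and knockdown share, carried shBcat or shGFP in 2i for 48 h (n = 3 each). The other TPM tables hold V6.5 cells in 2i and in epiLC medium for 24 h and 48 h without a named hairpin (n = 2 each), and epiLC with shBcat at 24, 48 and 96 h beside epiLC without a named hairpin at 96 h (n = 2 each). Whether replicates were separate cultures is not labelled, so a p-value here reflects library-to-library spread that could be technical. No label gives the number of hairpins per gene or of clones, and in bulk RNA fewer cells that make a transcript and less transcript per cell cannot be told apart.

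ATF4 is a transcription factor whose messenger RNA is translated when eIF2 is phosphorylated, as happens when amino acids run short, when heme is low, when double-stranded RNA is present or when proteins misfold in the endoplasmic reticulum. It binds composite elements, often with C/EBP partners, and switches on genes that make, import and charge amino acids, together with CHOP (encoded by Ddit3) and other regulators. Because the control acts on translation and protein stability as well as on the transcript, the Atf4 transcript need not follow ATF4 activity.

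Composite elements of the form TGATGNAA were searched on both strands and found in promoters of 11 of the 30 genes that matched the RefSeq promoter table, which together have 34 promoters there. Over all 32851 promoters of that table, 3.97% held the letters, and every promoter spans 300 bases, 250 before the transcription start and 50 after it. The windows of these 11 genes are shown because they hold these letters. They read 5′ to 3′ on the gene's strand in GRCm38.p6, with the match in capitals (TTGCATCA, for example, is a match on the other strand), and a match is a description of the sequence and not evidence of a bound site.
Asns, chr6:7693205-7693252, minus strand: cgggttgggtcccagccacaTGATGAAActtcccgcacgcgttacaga
Chac1, chr2:119351029-119351076, plus strand: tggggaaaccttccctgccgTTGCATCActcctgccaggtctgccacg
Trib3, chr2:152344019-152344066, minus strand: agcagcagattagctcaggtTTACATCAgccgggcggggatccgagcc
Nupr1, chr7:126625553-126625600, minus strand: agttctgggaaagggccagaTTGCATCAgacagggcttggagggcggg
Atf3, chr1:191183416-191183463, minus strand: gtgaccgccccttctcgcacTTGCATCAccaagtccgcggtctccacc
Herpud1, chr8:94386297-94386344, plus strand: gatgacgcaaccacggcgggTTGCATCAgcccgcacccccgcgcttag
Pycr1, chr11:120643824-120643871, minus strand: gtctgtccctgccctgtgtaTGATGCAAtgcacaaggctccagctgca
Slc7a11, chr3:50443633-50443699, minus strand: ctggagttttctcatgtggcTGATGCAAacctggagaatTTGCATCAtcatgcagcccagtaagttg
Vldlr, chr19:27216800-27216847, plus strand: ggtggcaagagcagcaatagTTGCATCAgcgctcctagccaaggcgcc
Aars, chr8:111033710-111033757, plus strand: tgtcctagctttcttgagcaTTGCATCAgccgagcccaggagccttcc
Gars, chr6:55037951-55037998, plus strand: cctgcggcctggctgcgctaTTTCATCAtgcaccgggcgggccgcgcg

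The match lay 23 bases before the start site in Asns, 193 in Chac1, 110 in Nupr1 and in Atf3, 112 in Herpud1 and in Aars, 103 in Pycr1, 200 in Vldlr and 30 in Gars, and 14 bases after it in Trib3. Slc7a11 held 2 matches within 1 window, the first 66 bases before the start, and Aars held a further match 9 bases after its start, outside the window shown. Ddit3, Atf4, Atf5, Psat1 and Mthfd2, which recur in the results, were among the matched genes whose windows did not hold these letters. The endoplasmic reticulum stress response element, CCAAT and CCACG with 9 bases between them, likewise searched on both strands, occurred in 1 member, Hspa5, and in 0.119% of all promoters.
Hspa5, chr2:34772005-34772063, plus strand: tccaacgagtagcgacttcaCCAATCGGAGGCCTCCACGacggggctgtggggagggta
Cth, Mars, Nars, Slc7a3, Slc7a5 and Wars had no entry.

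Before the members, the libraries were checked. The targeted transcript was lower in each knockdown, with limma adjusted p-values of 6.92e-07 to 0.0108. Ctnnb1, which encodes β-catenin, had log2 changes of -3.93 with shBcat in V6.5 cells, -2.98 in QKO cells and -1.62 in epiLC at 96 h. E2f6 fell by 1.45 with shE2F6, and Cbx3, which encodes HP1γ, fell by 3.02 with shHP1r. Mitochondrial transcripts made up 19.3% to 22.9% of the FPKM total in both shE2F6 libraries and in shGFP replicates 3 and 4, while the remaining 8 libraries of that table held 6.23% to 10.3%. The 4 epiLC markers summed to 23.6 and 25.4 FPKM with shBcat in V6.5 cells and to 7.75 to 13.8 FPKM with shGFP, and their part in the shBcat results was not tested. In the time course the epiLC markers summed to 27.2 to 29.3 TPM in 2i, 445 TPM at 24 h and 224 to 232 TPM at 48 h. From 24 h to 48 h the pluripotency markers went from 1373 to 1420 TPM down to 541 to 574 TPM. The trophoblast markers went from 30.8 to 31.8 TPM up to 189 to 195 TPM. The part of these markers in the time course results was not tested. Fibroblast or feeder markers stood apart in the QKO table, as given with that comparison.

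With shBcat in V6.5 cells in 2i, 15 of 35 tested members rose and 0 fell, against 8.71% of the 14407 genes tested that passed the same threshold in either direction, 3.51% upward and 5.21% downward. A gene passed when its adjusted p was under 0.05 in a limma fit on log2(value + 1) with Benjamini-Hochberg adjustment over all genes of the table. The median log2 change of the 35 members was 0.36, against 0.01 over all genes tested. By role, 4 of 10 regulators, 1 of 3 endoplasmic reticulum genes, 3 of 10 synthesis enzymes, 3 of 5 tested transporters, 3 of 6 tRNA synthetases and Vldlr rose. Slc7a11 stayed under 1 FPKM in all 12 libraries and was not tested.

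Among the regulators, Chac1, which encodes an enzyme that degrades glutathione, read 7.68 and 6.99 FPKM with shBcat and 1.72, 2.63 and 2.99 FPKM at the lowest, median and highest of the shGFP libraries. The groups did not overlap, and Chac1 rose by 1.28 ± 0.17 (SE) on the log2 scale (limma adjusted p = 0.00107). Ddit3 read 8.69 and 8.87 FPKM with shBcat against 2.62, 3.70 and 4.08 with shGFP, and rose by 1.15 ± 0.16 (limma adjusted p = 0.00143). Both shBcat libraries stood at more than the highest control for Nupr1, a stress-induced chromatin protein, with 15.0 and 15.1 FPKM against 6.69 to 8.83. Nupr1 rose by 0.86 ± 0.19 (limma adjusted p = 0.0205). Cebpb, which encodes a partner of ATF4 on composite elements, read 3.01 and 2.47 FPKM against 0.846 to 1.74 and rose by 0.69 ± 0.16 (limma adjusted p = 0.0211).

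Other regulators did not pass in these V6.5 cells. Atf4 itself read 140 and 146 FPKM with shBcat and 111, 118 and 123 FPKM at the lowest, median and highest shGFP library, a log2 difference of 0.29 ± 0.13 (limma adjusted p = 0.225) with no overlap between the groups. Trib3, a pseudokinase gene that ATF4 and CHOP activate, read 13.3 and 14.6 FPKM against 2.44, 6.37 and 8.76. Its groups did not overlap either, but its controls spread widely, and the log2 difference of 1.24 ± 0.37 missed the threshold (limma adjusted p = 0.0648). Trib3 was lowest in the 2 shGFP libraries with the high mitochondrial share, at 2.83 and 2.44 FPKM. Atf3 read 1.55 and 1.47 FPKM against 0.165 to 0.942 (log2 difference 0.66 ± 0.19, limma adjusted p = 0.0574). Atf5, Sesn2 and Ppp1r15a had log2 differences of -0.06, 0.18 and 0.01.

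**Figure D1:**
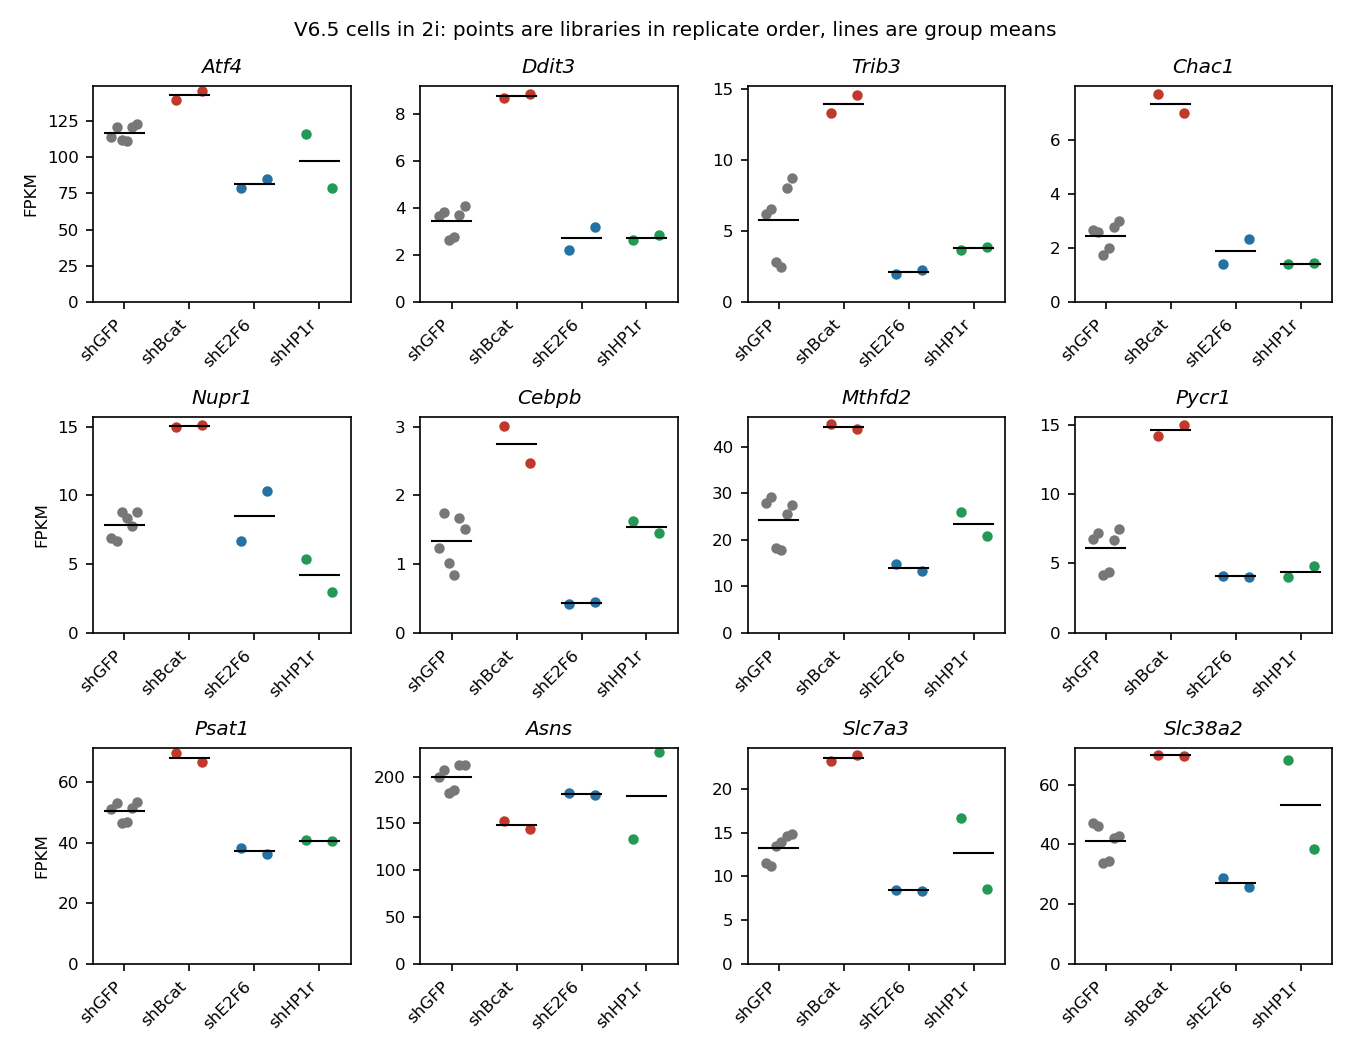
FPKM of 12 members in the V6.5 hairpin libraries in 2i, one panel per gene, with a point per library in replicate order and a line at each group mean. Both shBcat libraries sit above every other library for Ddit3, at 8.69 and 8.87 FPKM, and for Chac1, at 7.68 and 6.99, and Asns reads 153 and 144 FPKM with shBcat against 183 to 212 with shGFP.

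Of the synthesis enzymes, Pycr1, Mthfd2 and Psat1 rose. Pycr1, which makes proline from pyrroline-5-carboxylate, read 14.2 and 15.0 FPKM with shBcat and 4.20, 6.73 and 7.48 FPKM at the lowest, median and highest shGFP library, and rose by 1.16 ± 0.20 on the log2 scale (limma adjusted p = 0.0053). Mthfd2, a mitochondrial folate enzyme, read 44.8 and 43.7 FPKM against 17.7, 26.5 and 29.1, and rose by 0.86 ± 0.19 (limma adjusted p = 0.0214). Psat1, the aminotransferase of serine synthesis, read 69.6 and 66.6 FPKM against 46.4 to 53.5 and rose by 0.43 ± 0.09 (limma adjusted p = 0.0137). In each of these 3 the groups did not overlap.

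Asns, asparagine synthetase and a classical ATF4 target, went the other way in value. It read 153 and 144 FPKM with shBcat and 183, 204 and 212 FPKM at the lowest, median and highest shGFP library. Its groups did not overlap, and the log2 difference of -0.43 ± 0.17 missed the threshold (limma adjusted p = 0.154). It passed, as lower, with the shGFP and shBcat libraries fitted alone (limma adjusted p = 0.0449) and with a term for the high mitochondrial libraries (limma adjusted p = 0.0468). Cbs, the entry enzyme of transsulfuration, had a log2 difference of -0.47, and the other 5 enzymes lay between 0.06 and 0.38.

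Of the transporters, Slc7a3, which carries cationic amino acids, read 23.2 and 23.9 FPKM with shBcat against 11.2 to 14.8 with shGFP and rose by 0.79 ± 0.19 (limma adjusted p = 0.0308). Slc38a2, which takes up neutral amino acids with sodium, read 70.1 and 69.7 FPKM against 33.9 to 47.2 and rose by 0.76 ± 0.20 (limma adjusted p = 0.0401). Slc3a2, the heavy chain shared by several transporters, read 89.0 and 88.5 FPKM against 58.5 to 73.1 and rose by 0.42 ± 0.12 (limma adjusted p = 0.0497). Its partner Slc7a5 read 73.7 and 73.2 FPKM against 46.9 to 67.9 and did not pass (log2 difference 0.35, limma adjusted p = 0.182), and Slc7a1 had a log2 difference of -0.03.

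The 6 tRNA synthetases, which charge tRNAs with their amino acids, all had positive values. Sars read 46.6 and 46.0 FPKM with shBcat against 27.4 to 33.4 with shGFP and rose by 0.61 ± 0.10 (limma adjusted p = 0.00399). Nars and Gars rose by 0.36 and 0.35, while Aars, Wars and Mars did not pass. Herpud1, which takes part in the degradation of endoplasmic reticulum proteins, read 9.58 and 9.70 FPKM against 5.40 to 6.22 and rose by 0.63 ± 0.13 (limma adjusted p = 0.0137). Hspa5, the endoplasmic reticulum chaperone BiP, read 74.6 and 75.8 FPKM against 83.1 to 107 and did not pass (log2 difference -0.31, limma adjusted p = 0.184).

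These calls rested on both shBcat libraries, as did most calls among all genes of the table. Without shBcat replicate 1 or without shBcat replicate 2, 2 members passed, and in both cases these were Ddit3 and Chac1. Without any one shGFP library 10 to 13 passed, where 6.47% to 8.5% of all genes did. The shGFP libraries also resembled each other in numbered pairs, and with the 12 libraries averaged in pairs to 6, which leaves 2 residual degrees of freedom, limma called 0 members, with 8 at an unadjusted p under 0.05, and 0 of all genes.

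Further genes of the pathway were read from 5 lists of other genes, also chosen with earlier results known. Of 18 tested further ATF4 targets, 7 rose and 1 fell with shBcat in V6.5 cells, at a median log2 change of 0.61. They included Jdp2, a transcription factor gene, at 6.13 ± 0.39 against 2.37 ± 0.51 FPKM (SD), the glycine transporter gene Slc6a9 at 2.19 ± 0.15 against 0.933 ± 0.17 and the glutamine transporter gene Slc38a1 at 22.8 ± 0.92 against 14.1 ± 1.1. Slc43a1, a transporter gene for neutral amino acids, was the one that fell, from 3.93 to 1.85 FPKM. Of 14 further tRNA synthetases, Cars and Eprs rose and 12 did not pass. Of 17 further endoplasmic reticulum chaperone and unfolded protein response genes, 0 rose and Pdia3 fell, from 159 ± 22 to 89.0 ± 0.57 FPKM. Of 14 genes for eIF2 kinases and for eIF2 and eIF2B subunits, 0 rose and Eif2b4 fell. Of 8 targets of NRF2, the regulator of the oxidative stress response, 0 passed and 2 had an unadjusted p under 0.05.

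With shE2F6, 0 of 35 members passed in limma, where 1.06% of all genes tested did, 0.41% as higher and 0.652% as lower, and 21 had an unadjusted p under 0.05, all of them lower. The median log2 change of the members was -0.43, but that of all genes was -0.20, and median-of-ratios scaling moved the latter by 0.20, to -0.001. Atf4 read 78.5 and 85.1 FPKM against 111 to 123 with shGFP (log2 difference -0.51, limma adjusted p = 0.0696). Atf5 read 3.91 and 4.80 FPKM against 8.85 to 12.5 (log2 difference -1.09, limma adjusted p = 0.0603). Cebpb read 0.423 and 0.444 FPKM against 0.846 to 1.74, and Trib3 read 1.99 and 2.23 FPKM against 2.44 to 8.76. In these 4 genes every shE2F6 library lay below every shGFP library, as in further members such as Herpud1, Psat1, Mthfd2, Slc7a3 and Nars. The share of all genes that did so was not counted, and the median of all genes was lower as well.

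Ddit3, Chac1 and Asns were among the members whose groups overlapped. Ddit3 read 2.2 and 3.21 FPKM with shE2F6 against 2.62 to 4.08, Chac1 read 1.42 and 2.32 against 1.72 to 2.99 and Asns read 183 and 180 against 183 to 212. The mitochondrial share moved with this comparison. Without shGFP replicate 3, 18 members passed, all lower, where 28.9% of all genes did, and without replicate 4 the number was again 18, where 23.9% of all genes did. Without both, which was chosen after seeing the data, 24 members passed, all lower, where 59.1% of all genes did. With a term for the set of 4 libraries with the high mitochondrial share, 1 member passed and the members' median was -0.20 against -0.04 for all genes. Of the 14 eIF2 genes Eif2b1 and Eif2b2 fell with shE2F6, and in the other 4 lists 0 passed, with 21 genes at an unadjusted p under 0.05.

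With shHP1r, 4 of 35 members fell and 0 rose, against 7.59% of all genes, 5.89% upward and 1.7% downward, and the members' median log2 change was -0.23 against 0.04 for all genes. Slc7a1, the main transporter gene for cationic amino acids in many tissues, read 4.78 and 7.00 FPKM against 11.5, 12.2 and 13.6 FPKM at the lowest, median and highest shGFP library, and fell by 0.97 ± 0.14 on the log2 scale (limma adjusted p = 0.00179). Nupr1 read 5.40 and 2.97 FPKM against 6.69 to 8.83 and fell by 0.81 ± 0.19 (limma adjusted p = 0.0298). Sars read 21.8 and 20.6 FPKM against 27.4 to 33.4, and Nars 85.8 and 72.2 FPKM against 99.2 to 104. They fell by 0.48 and 0.37.

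The 2 shHP1r libraries differed from each other in other members. Asns read 133 FPKM in replicate 1 and 226 FPKM in replicate 2, Atf4 116 and 78.7, Atf5 13.4 and 5.28, Slc38a2 68.3 and 38.4 and Slc7a3 16.7 and 8.58. Ddit3 read 2.62 and 2.85 FPKM, Chac1 1.40 and 1.43, Trib3 3.65 and 3.90 and Slc7a11 0.157 and 0.0969. Without shHP1r replicate 2 the 4 members called were Herpud1, Asns, Slc7a1 and Slc38a2, of which 2 were higher and 2 lower. Without replicate 1 they were Atf4, Nupr1 and Nars, and without shGFP replicate 5 or shGFP replicate 6 they were Slc7a1 and Sars. With a term for the libraries with the high mitochondrial share 18 members fell, where 22.9% of all genes passed, and without both shGFP libraries of that kind 15 fell, where 16.2% of all genes passed. Fitted with shGFP alone 1 passed. Of the other pathway genes, Eif2s1, Eif2s3x and Mthfd1l fell with shHP1r. The 4 fibroblast markers in the FPKM table summed to 7.25 and 4.33 FPKM with shHP1r and to 1.27 to 2.72 FPKM with shGFP, and their part in the result was not tested.

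Set against shBcat directly, the other 2 knockdowns had lower values. With shE2F6, 24 of 35 members were lower and 0 higher than with shBcat, against 15.2% of all genes, 10.2% lower and 5.01% higher. The members' median log2 difference was -0.80 and that of all genes -0.20. Mitochondrial transcripts made up 22.3% and 22.9% of the total with shE2F6 and 10.3% and 9.99% with shBcat. With median-of-ratios scaling 16 members were lower, and the medians were -0.52 and 0.04, and with a term for the libraries with the high mitochondrial share 17 were lower. With shHP1r, 17 were lower and 0 higher, against 9.31% of all genes, 2.34% lower and 6.97% higher. Both comparisons share the shBcat libraries. Pycr1 differed by -1.62 ± 0.24 on the log2 scale with shE2F6 (limma adjusted p = 0.00362) and by -1.53 ± 0.24 with shHP1r (limma adjusted p = 0.00194). Atf4 differed by -0.80 with shE2F6 (limma adjusted p = 0.0137) and by -0.58 with shHP1r (limma adjusted p = 0.0498). Trib3 differed by -2.26 with shE2F6 and by -1.65 with shHP1r. Leaving out any one shBcat or shE2F6 library gave between 5 and 9 calls for shE2F6, and any one shBcat or shHP1r library between 7 and 13 for shHP1r. Those that passed each time were Ddit3, Chac1, Cebpb and Psat1 for shE2F6, and Ddit3, Chac1, Nupr1, Psat1, Pycr1, Nars and Sars for shHP1r. Calls among all genes moved as well when a library was left out, so these ranges do not describe the members alone. With the libraries averaged in pairs, each knockdown held a single value and 2 residual degrees of freedom remained. That fit could decide little, and the members' median log2 difference stayed at -0.80 for shE2F6 and -0.54 for shHP1r.

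In QKO cells in 2i, 0 of 35 members passed with shBcat in limma, where 2.15% of 15562 genes did, 0.585% as higher and 1.56% as lower, and 3 had an unadjusted p under 0.05 as higher and 14 as lower. The members' median log2 change was -0.13, against -0.04 over all genes. Slc7a11 was under 1 TPM in all 6 libraries and not tested, at 0.19, 0.17 and 0.21 TPM with shBcat and 0.47, 0.70 and 0.33 with shGFP. Atf4 read 156, 175 and 189 TPM with shBcat and 180, 197 and 177 with shGFP, which overlapped. Trib3 read 3.48, 3.94 and 5.87 against 5.85, 6.83 and 5.21 TPM, Chac1 2.4, 2.65 and 5.42 against 4.04, 5.2 and 2.78, and Asns 381, 398 and 411 against 391, 350 and 376, and all 3 overlapped.

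Nupr1 and Ddit3 had the smallest p among the members in QKO cells, and their groups did not overlap. Ddit3 read 12.1, 11.3 and 9.47 TPM with shBcat and 19.5, 32.7 and 18.9 TPM with shGFP, a log2 difference of -1.01 ± 0.21 (limma adjusted p = 0.0574). Nupr1 read 32.4, 33.6 and 34.0 TPM against 75.8, 118 and 61.5, a log2 difference of -1.27 ± 0.23 (limma adjusted p = 0.0514). Atf3 read 3.21, 3.08 and 3.01 TPM against 4.51, 9.40 and 4.30 (log2 difference -0.71, limma adjusted p = 0.125), and Cebpb 2.11, 1.69 and 1.55 against 3.17, 5.18 and 2.43 (log2 difference -0.68, limma adjusted p = 0.0957). In all 4 genes shGFP replicate 2 was the highest library. Without it Ddit3 and Nupr1 passed as lower, without shGFP replicate 3 Ddit3, Nupr1 and Atf5 did, and without shBcat replicate 1 Pycr1 passed as higher.

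Markers of fibroblasts or feeders were also lower with shBcat in QKO cells. The 6 of 6 markers in the table, Col1a1, Col1a2, Col3a1, Thy1, Twist1 and Postn, summed to 50.8, 66.9 and 77.7 TPM with shBcat and to 298, 505 and 214 TPM with shGFP, where replicate 2 was again the highest, and 0 of the 6 were at 0 in any library. Within shBcat the fibroblast sum was lowest in replicate 1, where Ddit3, Atf3 and Cebpb were highest and Nupr1 was lowest. The 4 endoderm markers were lower with shBcat as well, with sums of 9.22 to 15.3 TPM against 21.2 to 37.1 TPM with shGFP. The part of either list in the result was not tested. Among the other genes of the pathway, the eIF2 kinase gene Eif2ak2 fell in QKO cells from 45.5 ± 2.7 to 30.4 ± 0.61 TPM (SD), and the chaperone genes Pdia3 and Manf had log2 changes of -0.31 and -0.26 and passed. Of 19 tested further ATF4 targets 0 passed, with 6 at an unadjusted p under 0.05, 4 of them higher.

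**Figure D2:**
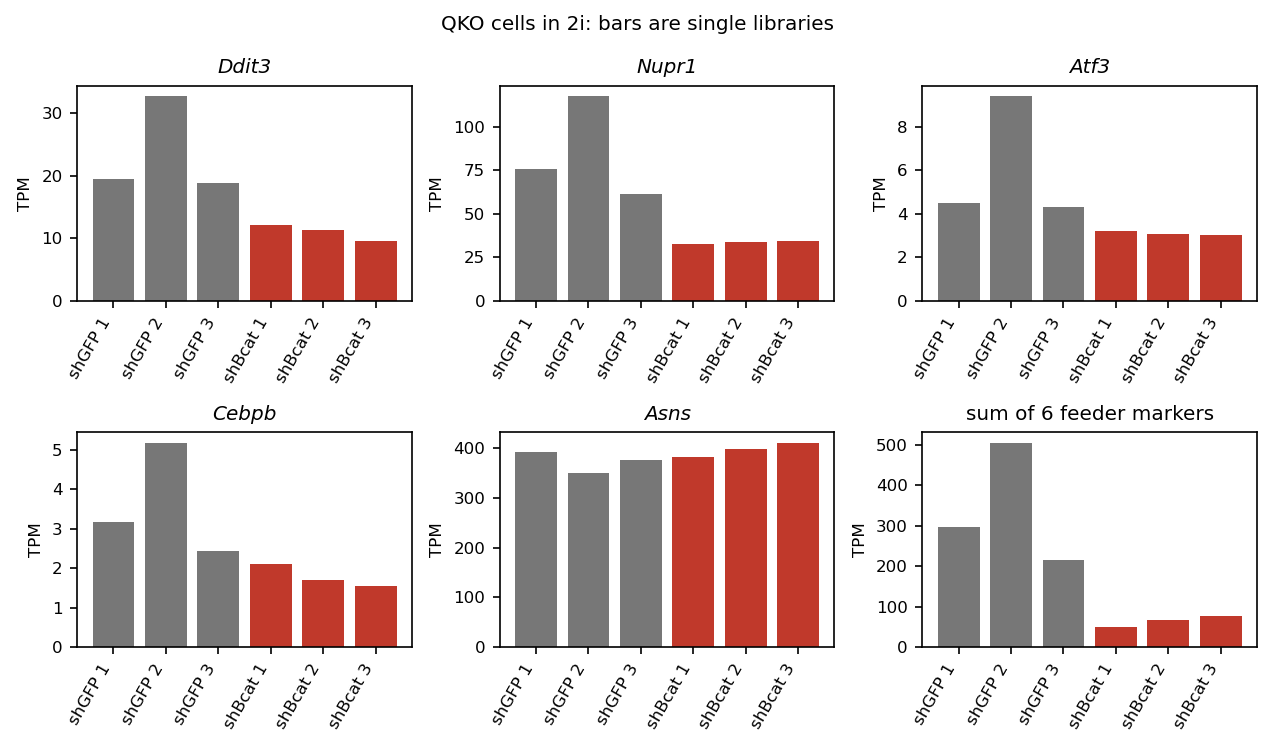
TPM of 5 members and summed TPM of the 6 fibroblast or feeder markers in the QKO libraries in 2i, a bar per library. The 3 shGFP bars of Nupr1, at 75.8, 118 and 61.5 TPM, stand above the 3 shBcat bars, and shGFP replicate 2 is highest both for Nupr1 and for the marker sum, at 505 TPM.

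When V6.5 cells left 2i for epiLC medium, most genes of the table changed, and the members have to be read against that. At 24 h 23 of 36 members rose and 8 fell, against 76% of 16559 genes tested, 36.2% of them upward and 39.8% downward. The members' median log2 change was 0.45, against -0.04 for all genes. By role, 8 of 10 regulators, 3 of 3 endoplasmic reticulum genes, 5 of 6 transporters and 4 of 6 tRNA synthetases rose, while of the 10 synthesis enzymes 3 rose and 4 fell.

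Transporters and regulators led the rises at 24 h. Slc7a3 read 32.7 and 34.6 TPM in 2i and 182 and 182 TPM at 24 h, a rise of 2.41 ± 0.03 on the log2 scale (limma adjusted p = 3.55e-08). Atf5, a stress-induced transcription factor gene of the ATF4 family, read 18.2 and 18.9 TPM and then 72.3 and 71.9, a rise of 1.90. Slc38a2 read 58.0 and 56.4 TPM and then 204 and 202, a rise of 1.81. Chac1 read 7.55 and 7.22 TPM in 2i and 26.9 and 24.5 at 24 h, a rise of 1.67. Slc7a11, the cystine transporter gene, read 0.35 and 0.38 TPM and then 2.93 and 2.69 TPM, so it came from under 1 TPM, and its rise of 1.48 understates the change because 1 was added before the logarithm.

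Atf4 read 227 and 228 TPM in 2i and 381 and 383 TPM at 24 h, a rise of 0.75 ± 0.03 (limma adjusted p = 9.67e-07). Trib3 read 21.1 and 21.6 TPM and then 41.2 and 41.6, a rise of 0.92. Hspa5 read 252 and 263 TPM and then 465 and 460, a rise of 0.84. Mthfd2 rose from 101.6 and 101.3 TPM to 196 and 196, and Wars from 39.9 and 41.2 to 73.1 and 74.0. In each of these genes both libraries at 24 h lay above both in 2i.

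Asns and Ddit3 fell while Atf4 rose. Asns read 794 and 795 TPM in 2i and 220 and 223 TPM at 24 h, and fell by 1.84 ± 0.02 on the log2 scale (limma adjusted p = 2.47e-08), and no member had a smaller p in this comparison. Ddit3 read 27.4 and 28.4 TPM and then 10.8 and 11.1, and fell by 1.28 ± 0.06 (limma adjusted p = 1.93e-06). Pycr1 fell from 76.1 and 76.8 to 37.9 and 40.4 TPM, Nupr1 from 157 and 174 to 82.3 and 89.8, Cth, which makes cysteine from cystathionine, from 197 and 187 to 124 and 122, and Cbs from 13.8 and 14.6 to 8.72 and 8.21. Phgdh, the first enzyme of serine synthesis, read 210 and 207 and then 205 and 208 TPM and did not pass (limma adjusted p = 0.681).

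Between 24 h and 48 h 26 of 36 members fell and 7 rose, against 74.2% of all genes, 28.9% of them downward and 45.2% upward. The members' median log2 change was -0.38 while that of all genes was 0.12, and median-of-ratios scaling shifted all genes by -0.15 and gave 28 falls and 2 rises among the members. Atf4 went down to 203 and 212 TPM at 48 h and fell by 0.88 ± 0.03 (limma adjusted p = 8.41e-07). Trib3 fell to 16.8 and 17.3 TPM, below its values in 2i, Chac1 to 18.5 and 18.8, Slc38a2 to 105 and 104, Mthfd2 to 104 and 112 and Slc7a11 to 1.78 and 2.07. Shmt2, which passes the carbon of serine to folate in mitochondria, fell from 259 and 259 to 118 and 117 TPM, a log2 change of -1.13. All 6 tRNA synthetases fell, with log2 changes from -0.11 for Sars to -0.59 for Mars.

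Nupr1 and Cth continued down. Nupr1 read 18.7 and 20.1 TPM at 48 h and fell by 2.09 ± 0.07 from 24 h (limma adjusted p = 8.95e-07), and Cth read 37.0 and 41.9 and fell by 1.62. Atf3, a repressor and activator of the same family, rose between 24 h and 48 h from 2.84 and 3.62 to 6.43 and 7.28 TPM, and Ddit3 rose to 13.1 and 14.6 TPM. Asns read 247 and 250 TPM at 48 h, and its rise of 0.16 turned to -0.01 (limma adjusted p = 0.771) with median-of-ratios scaling.

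At 48 h against 2i, 15 members were higher and 17 lower, against 75.9% of all genes, 45.1% higher and 30.8% lower. The members' median log2 change was -0.11, against 0.11 for all genes. Of the regulators 5 were higher and 5 lower, and of the tRNA synthetases 1 was higher and 4 lower. Of the transporters 5 of 6 were higher, led by Slc7a3 at 2.15, and of the synthesis enzymes 7 of 10 were lower, with Cth lowest at -2.26. Asns stood at -1.67, Slc7a11 at 1.10 and Atf4 at -0.13, and all 3 passed.

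Other genes of the pathway also moved in the course, where most genes passed. The background at 24 h is 76% of all genes, 36.2% upward and 39.8% downward. At 48 h against 2i it is 75.9%, 45.1% higher and 30.8% lower. Of 8 NRF2 targets 7 rose at 24 h, among them Gclc, which encodes the catalytic subunit of glutathione synthesis, from 28.3 ± 0.50 to 86.3 ± 2.4 TPM (SD). All 8 fell from 24 h to 48 h, where 74.2% of all genes passed, 28.9% of them downward. Among the 8 was Nqo1, a quinone reductase gene, with a log2 change of -2.17. Of 20 further ATF4 targets 7 rose and 7 fell at 24 h, of 14 further tRNA synthetases 10 rose and 2 fell, and of 17 further endoplasmic reticulum genes 13 were higher at 48 h than in 2i and 0 lower. Eif2s2, a subunit of eIF2, fell from 1065 ± 35 TPM in 2i to 384 ± 4.4 TPM at 24 h.

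**Figure D3:**
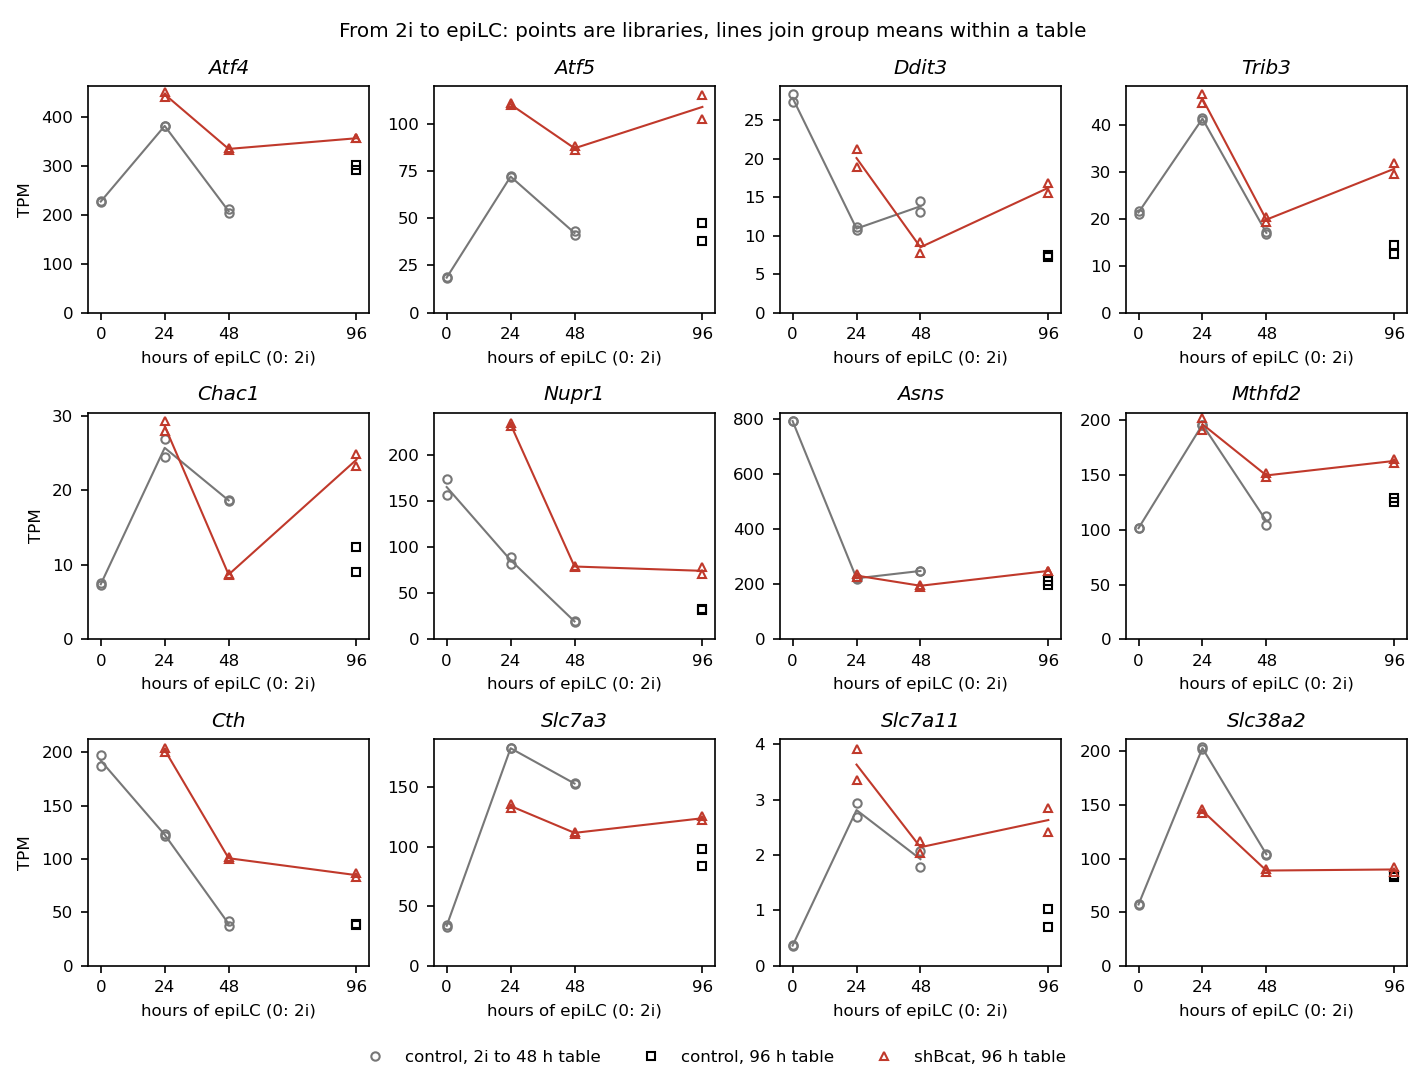
TPM of 12 members by hours of epiLC medium, with 0 h for 2i, a point per library and lines between group means within a table, in grey for cells without a named hairpin up to 48 h, black for the 96 h control and red for shBcat. Slc7a3 goes from 33.6 TPM in 2i to 182 at 24 h and Asns from 794 to 222, and at 96 h the red points of Atf5, Nupr1, Trib3 and Cth lie above the black ones. Grey and the other colours come from separately normalized tables.

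In epiLC at 96 h, 17 of 36 members were higher with shBcat than in the control and 1 was lower, against 4.82% of 15304 genes tested, 2.29% of them upward and 2.54% downward. The members' median log2 change was 0.23, against -0.01 over all genes. By role, 7 of 10 regulators, 1 of 3 endoplasmic reticulum genes, 5 of 10 synthesis enzymes and 4 of 6 transporters rose. None of the 6 tRNA synthetases passed, and 3 had an unadjusted p under 0.05.

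Atf5 read 103 and 115 TPM with shBcat and 38 and 47.6 TPM in the control, a rise of 1.33 ± 0.10 (limma adjusted p = 0.000551). Nupr1 read 78.3 and 70.6 TPM against 32.6 and 31.5, a rise of 1.19 ± 0.06 (limma adjusted p = 8.1e-05). Trib3 read 29.5 and 31.9 against 12.6 and 14.5, a rise of 1.12 ± 0.08 (limma adjusted p = 0.000485). Chac1 read 23.3 and 24.9 TPM against 9.04 and 12.4, a rise of 1.11 ± 0.12 (limma adjusted p = 0.00287). Ddit3 read 16.9 and 15.6 TPM against 7.51 and 7.22, a rise of 1.04 ± 0.10 (limma adjusted p = 0.00125). Both knockdown libraries lay above both controls in all 5.

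Atf4 rose less in fold, from 293 and 302 to 357 and 356 TPM, by 0.26 ± 0.04 on the log2 scale (limma adjusted p = 0.0111). Sesn2, which encodes a leucine sensor that restrains mTORC1, read 39.7 and 49.3 TPM with shBcat against 28.0 and 32.3 and rose by 0.54. Ppp1r15a, whose product GADD34 directs a phosphatase to eIF2, was the member that fell, from 59.6 and 64.4 to 44.4 and 50.5 TPM, a log2 change of -0.38 ± 0.07 (limma adjusted p = 0.0242). Atf3 and Cebpb had log2 differences of 0.35 and 0.17 and did not pass.

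Cth had the smallest p of the members, with 86.8 and 83.0 TPM with shBcat and 39.2 and 38.4 in the control, a rise of 1.11 ± 0.05 (limma adjusted p = 3.3e-05). Slc7a11, which supplies cystine to the same cysteine pool, read 2.41 and 2.85 TPM against 0.70 and 1.02 and rose by 0.97 ± 0.13 (limma adjusted p = 0.00621). Mthfd2 read 161 and 165 TPM against 126 and 129 and rose by 0.35. Asns read 248 and 249 TPM against 198 and 211 and rose by 0.28 ± 0.05 (limma adjusted p = 0.0183). Psph, the last enzyme of serine synthesis, and Psat1 rose by 0.33 and 0.20. Of the transporters Slc7a3, Slc7a1 and Slc3a2 rose by 0.45, 0.45 and 0.28, and Slc38a2 read 88.0 and 91.9 TPM against 84.3 and 82.6 and did not pass. Herpud1 rose by 0.39, while Hspa5 read 492 and 473 TPM against 571 and 524 (log2 difference -0.18, limma adjusted p = 0.167).

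Leaving out 1 of the 4 libraries at a time gave 9 calls without control replicate 1 and 12 or 13 without another library. Atf5, Chac1, Cth, Ddit3, Mthfd2, Nupr1, Slc7a11 and Trib3 passed each time, which are 8 of the 18. The 5 trophoblast markers summed to 115 and 124 TPM with shBcat and to 150 and 152 TPM in the control, while the 4 epiLC markers summed to 148 and 163 against 144 and 149.5, and their part in the result was not tested. A second entry named Ddit3, with its own Ensembl identifier, held 7.16 and 0 TPM with shBcat and 0 and 0 TPM in the control at 96 h. Reads may be split between the 2 entries, and with both summed Ddit3 and the same number of members, 18, passed.

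Among the other pathway genes, 6 of 20 further ATF4 targets rose with shBcat at 96 h and 0 fell. They included Gdf15, a stress-induced secreted factor, at 4.57 ± 0.30 against 1.91 ± 0.51 TPM (SD), Pck2, the mitochondrial phosphoenolpyruvate carboxykinase, at 23.0 ± 1.0 against 14.3 ± 0.47, and Aldh1l2, a mitochondrial folate enzyme, at 3.44 ± 0.11 against 1.67 ± 0.08. Of 8 NRF2 targets Nqo1 and Gclm rose. Of 13 tested eIF2 genes Impact, an inhibitor of the eIF2 kinase GCN2, rose and 0 fell. Of 17 further endoplasmic reticulum genes 0 passed in limma, with 5 at an unadjusted p under 0.05, 4 of them lower.

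Within the shBcat epiLC, 27 of 36 members fell and 2 rose from 24 h to 48 h, against 33.4% of all genes, 17.8% downward and 15.7% upward. Nupr1 read 232 and 236 TPM at 24 h and 78.6 and 79.7 at 48 h, and Chac1 27.9 and 29.3 and then 8.70 and 8.66. Trib3 fell from 44.6 and 46.7 to 20.4 and 19.3 TPM, Ddit3 from 18.9 and 21.3 to 7.82 and 9.20, Atf4 from 451 and 442 to 337 and 332, Asns from 227 and 237 to 198 and 192 and Slc7a11 from 3.35 and 3.91 to 2.25 and 2.03. Ppp1r15a and Phgdh rose. Without any one of these 4 libraries 18 or 19 members passed.

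From 48 h to 96 h with shBcat 16 members rose and 2 fell, against 35% of all genes, 25.2% upward and 9.83% downward. The members' median log2 change was 0.15, against 0.09 for all genes, and median-of-ratios scaling moved the latter to 0.003. Chac1 rose by 1.37 ± 0.12 on the log2 scale (limma adjusted p = 0.000265) and Ddit3 by 0.86 ± 0.10 (limma adjusted p = 0.000659). Vldlr, a receptor for lipoproteins, rose from 3.71 and 3.09 to 7.60 and 7.06 TPM. Its control at 96 h read 7.01 and 7.13 TPM, and the 96 h groups did not differ beyond their spread (log2 difference 0.05). Ppp1r15a and Cth fell. Without shBcat 48 h replicate 1 or 2, 11 members passed.

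Cells with and without shBcat at 24 h and 48 h lie in tables normalized separately, so their values stand side by side without a test. Cth read 200 and 204 TPM with shBcat at 24 h and 124 and 122 without, and at 48 h 102 and 100 against 37.0 and 41.9. Nupr1 read 232 and 236 against 82.3 and 89.8 TPM at 24 h. Chac1 read 27.9 and 29.3 against 26.9 and 24.5 TPM at 24 h and 8.70 and 8.66 against 18.5 and 18.8 at 48 h. Slc7a3 read 132 and 136 against 182 and 182 TPM at 24 h and 112 and 111 against 153 and 152 TPM at 48 h.

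**Figure D4:**
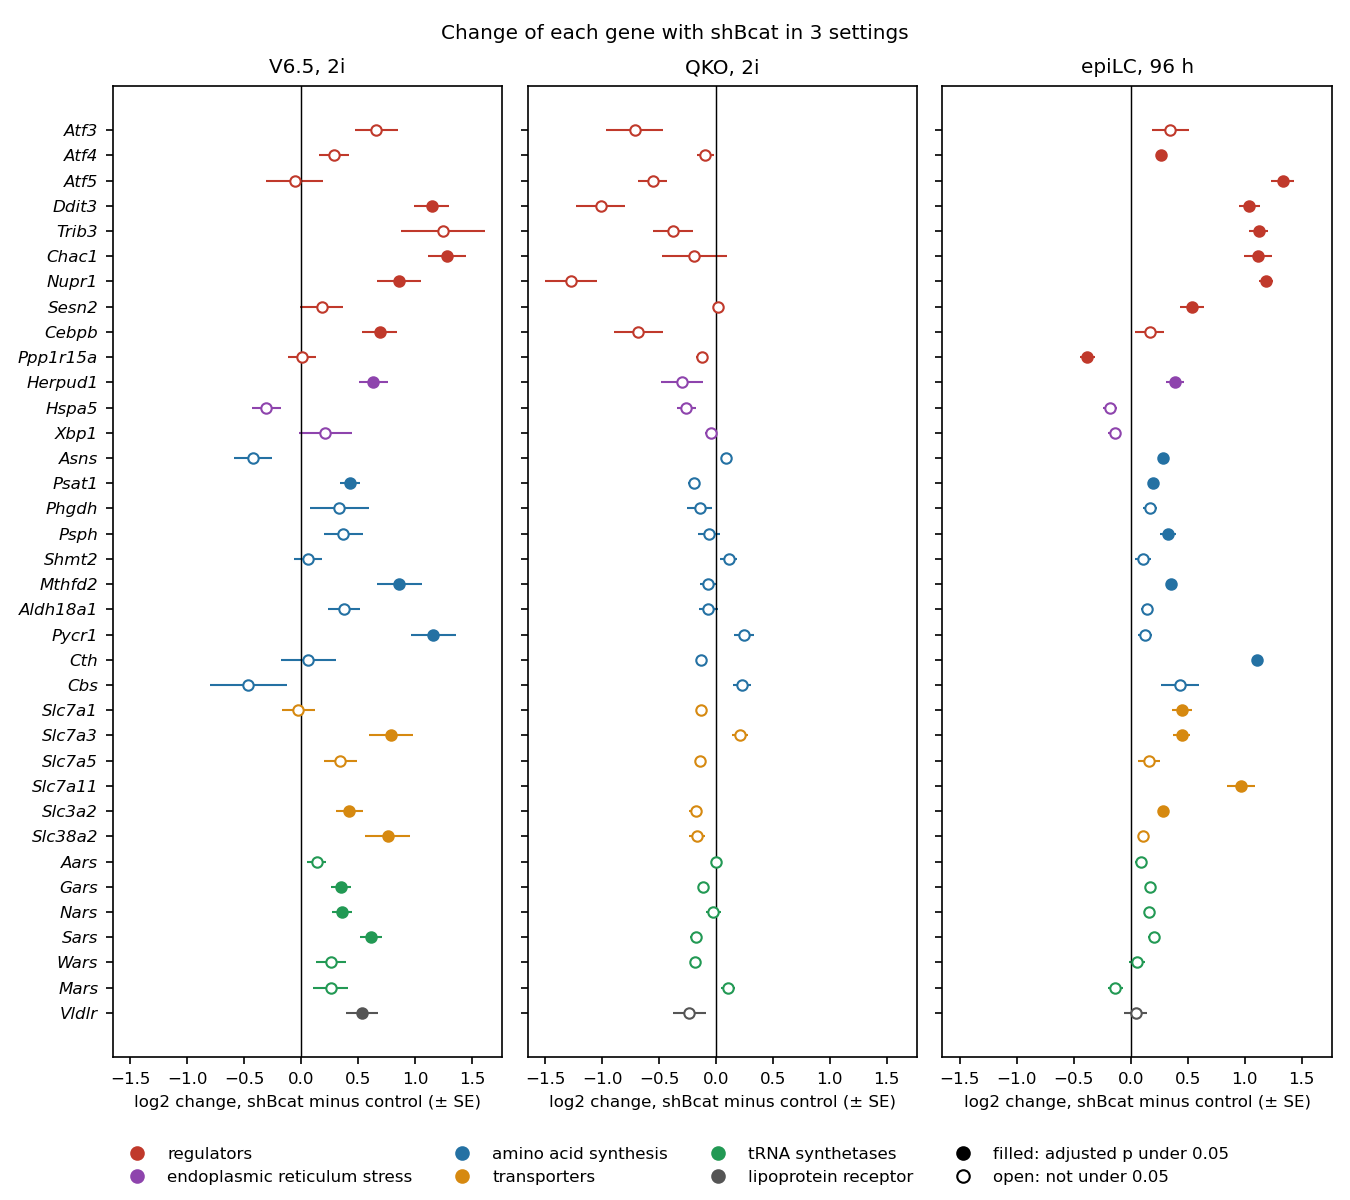
Log2 change of each member with shBcat against its control (points) with the standard error (bars), by role in colour, in V6.5 cells in 2i, QKO cells in 2i and epiLC at 96 h, with filled points for an adjusted p under 0.05. Chac1 and Ddit3 are filled at 1.28 and 1.15 on the left and at 1.11 and 1.04 on the right, and in the middle panel every point is open. Slc7a11 was tested in epiLC only.

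The 2 shBcat comparisons with calls, V6.5 in 2i and epiLC at 96 h, share no library. Ddit3, Chac1, Nupr1, Herpud1, Psat1, Mthfd2, Slc7a3 and Slc3a2 were higher in both. These 8 are 53.3% of the 15 members called in 2i and 44.4% of the 18 called in epiLC. The overlap over all genes was not counted, so these shares have no background here. Of the 8, only Ddit3 and Chac1 passed in both comparisons whichever library was left out. The controls also differ, with shGFP in 2i and no named hairpin at 96 h. Pycr1, Cebpb, Slc38a2, Gars, Nars, Sars and Vldlr passed in 2i and not in epiLC, and Atf4, Atf5, Trib3, Cth, Asns, Sesn2, Psph, Slc7a1, Slc7a11 and Ppp1r15a the reverse. Whether any gene's change differed between the 2 was not tested, since the tables were normalized separately and hold different units.

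**Figure D5:**
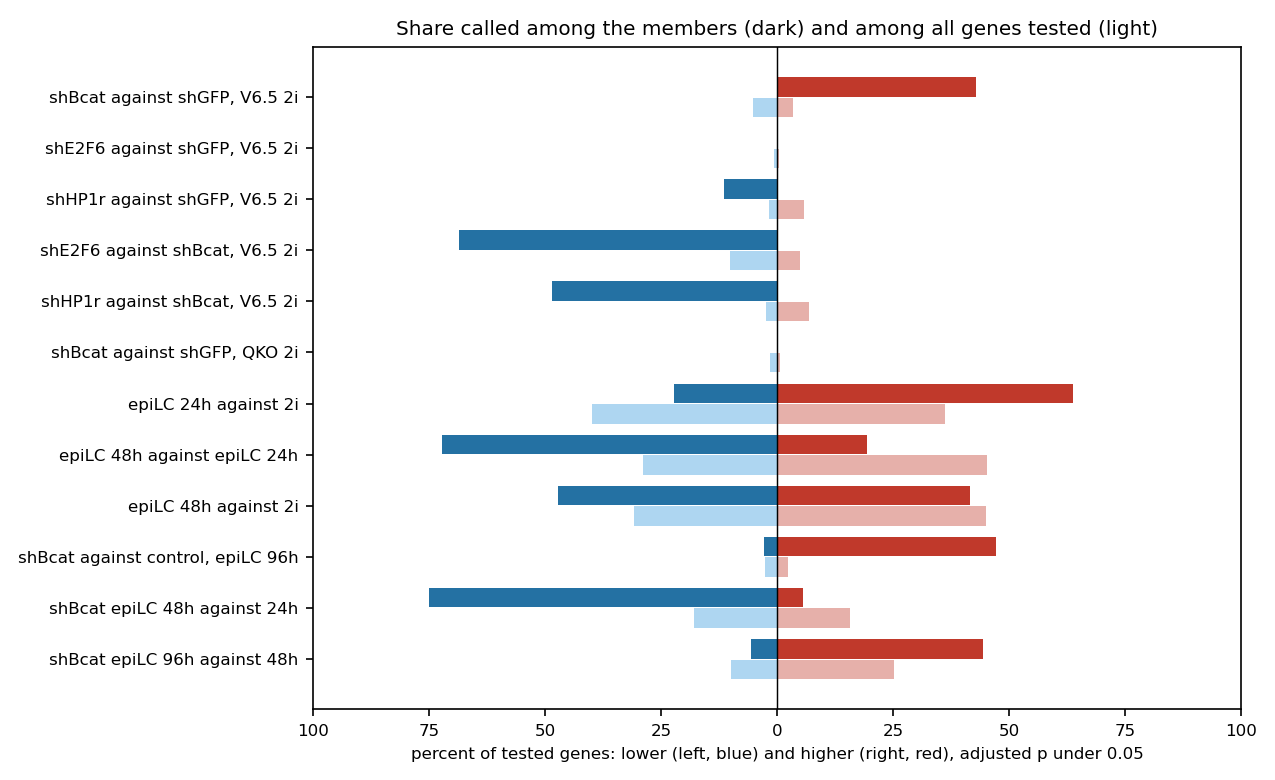
Percent of tested genes with an adjusted p under 0.05 in each of 12 comparisons, lower to the left in blue and higher to the right in red, with dark bars for the members and light bars for all genes tested. With shBcat in V6.5 cells 15 of 35 members are to the right against 3.51% of all genes, and at 24 h of epiLC 23 of 36 members are to the right against 36.2%.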

How the data were processed

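RNA-seq values of 32 of the 50 samples were used, and the 18 chromatin immunoprecipitation libraries were not analysed here. The authors deposited FPKM values for the 12 V6.5 hairpin libraries and TPM values for the other 20. Per the submitters' processing notes, the FPKM samples were processed with bcl2fastq 2.18, TopHat2 2.0.13, Bowtie2 and Cufflinks 2.2.1 and the TPM samples with bcl2fastq 2.18, STAR, Bowtie2 and RSEM, with mm10 as the genome build. Versions of STAR, RSEM and Bowtie2 are not given in the sources used here. The FPKM table lists no gene at 0, and 1 further column, named for shHP1r replicate 2 and holding values below 0, was not used. Neither unit keeps depth here, so depth is unknown. In both units abundant transcripts lower all others.

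Deposited values were converted to log2(value + 1), and a gene was tested where at least 2 libraries of its table reached 1 (14407, 15562, 16559 and 15304 genes per table). Each table was fitted apart over all its libraries using limma 3.58.1 (statmod 1.5.0, R 4.3.3), in which each group had its mean and the moderation was robust with a trend in the variance. Tests were two-sided at a threshold of 0.05 after Benjamini-Hochberg adjustment over the genes tested. Changes on this scale understate those of low genes. Of the 2 entries named Ddit3 in the TPM tables, the one with the identifier used in the FPKM table was taken.

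The members, the lists and the tests were chosen with earlier results of these data known. Values per library are given for Atf4, Ddit3, Trib3, Chac1, Asns and Slc7a11, for up to 10 called members a comparison, by smallest p, whose libraries do not overlap, and for further members as values. Up to 4 called genes of each further list were named by smallest p, and Ctnnb1, E2f6 and Cbx3 as checks. Alternatives were 0.1 as the pseudocount, a minimum of 5 or none at all, median-of-ratios scaling, plain moderation, fits of the 2 compared groups alone, omission of each library, the replicate number as a block, a term for the high mitochondrial libraries and libraries averaged in pairs. Leaving out both high mitochondrial shGFP libraries and summing the Ddit3 entries were added after seeing the data. Promoters are RefSeq's, GRCm38.p6.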

Additional observations from a re-analysis of the deposited data

Results flagged for a closer look

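In 11 members every shBcat library lay above the controls in V6.5 cells in 2i and below them in QKO cells in 2i. The difference was not tested, since the tables hold different units. How many of all genes did the same was not counted, so the 11 have no background to be read against. For Atf3 the log2 change was 0.66 in V6.5 cells and -0.71 in QKO cells, for Ddit3 1.15 and -1.01, for Nupr1 0.86 and -1.27 and for Cebpb 0.69 and -0.68. Among the serine, transport and tRNA genes it was 0.43 and -0.19 for Psat1, 0.35 and -0.14 for Slc7a5, 0.42 and -0.18 for Slc3a2, 0.76 and -0.17 for Slc38a2, 0.35 and -0.11 for Gars, 0.61 and -0.18 for Sars and 0.26 and -0.18 for Wars. None of the 11 passed the threshold in QKO cells, where fibroblast or feeder markers summed to 214 to 505 TPM with shGFP and to 50.8 to 77.7 TPM with shBcat. The part of those markers was not tested.

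Asns went the opposite way between the other 2 shBcat comparisons, with a log2 change of -0.43 in V6.5 cells in 2i and 0.28 in epiLC at 96 h, and the difference was not tested. In 2i it missed the threshold.

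The second entry named Ddit3, which the comparisons do not use, held values in the shBcat epiLC libraries. It read 7.16 TPM in shBcat replicate 1 at 96 h, 5.32 TPM in replicate 1 at 48 h and 1.01 TPM in replicate 1 at 24 h, and 0 TPM in the 96 h control and in every library of the other 2 TPM tables. In replicate 2 of those groups it read 0, 0.18 and 0.99 TPM. Only V6.5 shGFP, with 6 libraries, was large enough to test for a library that stood apart. In its 36 sets of member values, 1 per member, 0 held such a library. The test looks for 1 library at a time, so it can miss 2 similar ones such as shGFP replicates 3 and 4. The shBcat, QKO and epiLC groups were too small to test.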

How the results depend on the processing

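The depth of every library is unknown, the groups hold 2 to 6 libraries, and the lists were chosen with results known, so counts describe these libraries. With 1 library left out at a time, the number of members called lay between 2 and 13 for shBcat in V6.5 cells, 0 and 18 for shE2F6, 2 and 4 for shHP1r, 5 and 9 for shE2F6 against shBcat, 7 and 13 for shHP1r against shBcat and 0 and 3 in QKO cells. It lay between 29 and 31 for 24 h of epiLC against 2i, 32 and 34 for 48 h against 24 h, 30 and 32 for 48 h against 2i, 9 and 13 for shBcat at 96 h, 18 and 19 for shBcat from 24 h to 48 h and 11 and 19 from 48 h to 96 h. Where an arm kept 1 library, it was assumed to vary like the other groups. Calls among all genes moved as well, so these ranges do not describe the members alone. Without 1 shGFP library 0.244% to 28.9% of all genes passed for shE2F6, and without 1 library 0.0522% to 6.26% in QKO cells. For shE2F6, with 0 reported, a pseudocount of 0.1 gave 3, a minimum of 5 gave 3, median-of-ratios scaling 1, a term for the high mitochondrial libraries 1, the compared groups alone 1 and both high mitochondrial shGFP libraries left out 24. In that order 1.93%, 3%, 1.67%, 1.78%, 0.26% and 59.1% of all genes were called. For shHP1r, with 4 reported, the scaling gave 7, the term 18, the groups alone 1 and both libraries left out 15, with 8.04%, 22.9%, 3.92% and 16.2% of all genes called. Averaged in pairs, each knockdown in V6.5 cells held a single value and 2 residual degrees of freedom remained, so that fit could decide little. In QKO cells a pseudocount of 0.1 gave 1 and a minimum of 5 gave 4, with 3.66% and 7.71% of all genes called. At 96 h no filter gave 10, no trend or robust moderation 11 and the groups alone 7, given here without the share of all genes. The cause was not tested. Scaling reversed 1 named result, Asns from 24 h to 48 h, at -0.0086 (limma adjusted p = 0.771).

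Scaling moved the split of all genes from 59 higher and 94 lower to 153 and 86 for shE2F6, from 722 and 1474 to 1341 and 1290 for shE2F6 against shBcat, from 91 and 243 to 170 and 174 in QKO cells, from 7490 and 4789 to 5874 and 6383 for 48 h against 24 h and from 3856 and 1504 to 2561 and 2372 for shBcat from 48 h to 96 h. Deviations of same-numbered libraries in different groups had correlations from -0.14 to 0.28 (in QKO cells -0.01, -0.04 and 0.13). No other FPKM group has replicates 3 to 6, so for shGFP only replicates 1 and 2 entered, and other pairings were not examined. In the replicate block, shGFP replicates 3 to 6 each had a term of their own. Comparisons with shGFP in V6.5 cells therefore rested on shGFP replicates 1 and 2. With this block 21 members passed for shE2F6, all lower, where 53.3% of all genes did. It gave 12 for shBcat in V6.5 cells (10.8% of all genes), 5 for shHP1r (4.23%) and 0 in QKO cells (0.887%). For shBcat at 96 h it gave 18, given here without the share of all genes.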
